A study of Mus musculus with 30 samples.

Results

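Cohesin is the protein ring that holds sister chromatids together and folds chromosomes into loops. The 10 genes described here encode its core subunits (Smc1a, Smc3, Rad21, Stag1, Stag2), its regulators Pds5a and Pds5b, its loader Nipbl and the acetyltransferases Esco1 and Esco2. They were chosen by symbol from the 46078 genes of a table of RNA-seq counts. All 10 had fragments, and all 10 reached 10 CPM (fragment counts scaled to library size) in at least 1 library, as did 9071 genes in all. RNA came from C2C12, an established line of mouse myoblasts, the muscle precursor cells that fuse into myotubes once serum is withdrawn. The cells were in the growing state in low-glucose medium with 20% fetal bovine serum. They were stained for 15 minutes with the DNA dye Hoechst and separated on a cell sorter into G1, S and G2/M fractions. The labels name no drug and no genetic change in any fraction, and the design addresses how the transcriptome of these cells differs between phases. Because sorting takes cells at a DNA content and not at a time, each fraction is a mixture of cells within its phase. In bulk RNA, fewer cells of a kind and less RNA per cell cannot be told apart.

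In dividing cells the SMC1 and SMC3 arms and the RAD21 kleisin close into a ring, to which a STAG protein binds. NIPBL with MAU2 loads the ring onto DNA, WAPL with PDS5 opens it, and acetylation of SMC3 by ESCO1 or ESCO2 makes it resist opening. ESCO2 acts at replication forks, where cohesion between new sister chromatids is set up, and separase cuts RAD21 at anaphase. In muscle precursors, as in other cycling cells, these steps repeat in each cycle.

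Each phase had 2 columns of counts, of 16109055 to 18103769 fragments. The titles number them as replicates, and nothing states that they came from separate cultures. Across all genes the 2 columns of a phase differed little more than counting noise, with chi-square over its degrees of freedom of 1.00 in G1, 1.03 in S, then 1.15 in G2/M. Strictly, S (chi-square p = 0.0109) and G2/M (chi-square p = 3.11e-28) exceeded that noise, and G2/M stood at 1.04 without the gene model Gm17082. Among the cohesin genes, 1 of 30 column pairs had an exact binomial p below 0.05, Smc3 in G2/M with p = 0.0216 and a difference of 4.93%. The smallest Benjamini-Hochberg adjusted p of the 30 exact binomial tests was 0.648, and the median difference between columns was 2.21%. Columns were thus added together, and each phase counts as 1 sample. There is then no biological replicate, no test between phases is possible, and every interval below is a 95% interval of counting error alone. A lot is named in the titles for S but not in those for G1 or G2/M, so phase and lot cannot be told apart.

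The fractions carried the phase genes unequally. All 7 G1/S genes examined (Cdc6, Ccne1, Ccne2, Cdt1, Pcna, Mcm3 and Mcm5) were lower in S than in G1. All 7 G2/M genes (Ccnb1, Ccnb2, Cdc20, Ube2c, Cenpf, Aurka and Cdk1) were higher in G2/M than in G1. Of all genes with at least 10 CPM, 49.6% were higher in S than in G1 and 49.8% higher in G2/M than in G1. All 7 G2/M genes were also higher in G2/M than in S, and all 7 G1/S genes were lower in G2/M than in G1. The remaining comparisons were mixed. For S against G1, 6 of 7 G2/M genes were higher, with a median log2 ratio of 1.53 over the 7. Cdc20 was lower in S than in G1, at log2 -0.21. For G2/M against S, 4 of 7 G1/S genes were higher, against 50.5% of all genes. Of 6 myoblast markers 5 reached 10 CPM, and Myod1 stood at 5.73 to 6.64 CPM. Of 6 markers of other cell types, Ptprc, Epcam, Adipoq and Sox10 had 0 fragments in every library, Pecam1 had 29 in G2/M alone, and Cdh5 had 2 in G1 and 39 in S.

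The ring genes Smc1a, Smc3 and Rad21 were lowest in G1, and of the 10 genes they had the highest levels per exon base in every library. Smc1a encodes an ATPase subunit and lies on the X chromosome. It stood at 328 and 322 CPM in the G1 columns, 396 and 403 in S, then 469 and 461 in G2/M. Each phase was above the one before, by 1.23-fold from G1 to S and by 1.16-fold from S to G2/M. Rad21, the kleisin that separase cuts, stood at 299.9 and 304 CPM in G1, 397 and 398 in S, then 475 and 486 in G2/M. Its G2/M level was 1.59-fold the G1 level, with an interval of 1.55 to 1.63. Smc3, the subunit that ESCO enzymes acetylate, stood at 196 and 202 CPM in G1, 252 and 259 in S, then 259 and 247 in G2/M. Its S and G2/M columns overlapped, at log2 -0.02 (interval -0.06 to 0.02), and both lay above G1.

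**Figure D1:**
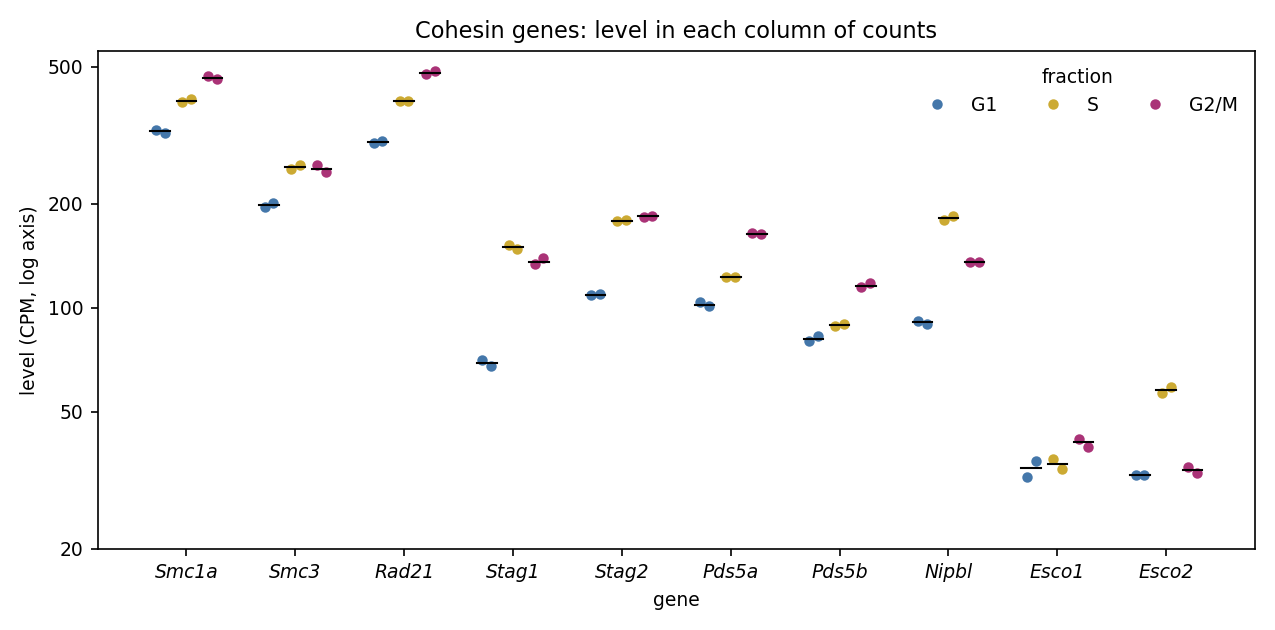
The level of each cohesin gene in CPM (log axis) in the 2 columns of G1, S and G2/M (dots), with the level of the summed library (black bar). G1 is the lowest library for all 10 genes, S the highest for 4 of them and G2/M the highest for 6. The choice of highest library is within counting error for Smc3 and Stag2, and that of lowest for Esco1 and Esco2. Of 4239 genes averaging 50 CPM or more, G1 is the lowest for 36.8%, S the highest for 31.7% and G2/M the highest for 32.0%. Esco1 and Esco2 average less than that.

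Smc3 was level between S and G2/M while Smc1a and Rad21 were higher in G2/M, and the proportions of the ring genes differed between libraries. The fragments of Rad21 per exon base were 2.33 times those of Smc3 in G1, 2.39 times in S, then 2.92 times in G2/M. Between G2/M and S that ratio differed 1.22-fold (interval 1.18 to 1.27), and between S and G1 the interval of 0.983 to 1.07 included no change. For Smc1a over Smc3 the ratio per exon base was 1.57 in G1 and 1.77 in G2/M, and the S ratio was 0.957 times the G1 ratio. The pairs Rad21 with Smc3 and Smc1a with Smc3 were chosen after their values were seen. Ratios of this kind lie within a library, so they do not depend on the scaling of libraries. Exon bases count every annotated exon of a gene, so a level per base is only as good as the annotation.

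Stag1 and Stag2 encode alternative subunits, only 1 of which sits in a given ring, and both were higher in S and G2/M than in G1. Stag1, on chromosome 9 from 100597798 to 100959375 of GRCm38 (ENSMUSG00000037286), stood at 70.4 and 67.9 CPM in G1, 152 and 148 in S, then 134 and 139 in G2/M. It had the widest range of the 10 genes, 2.16-fold between S and G1, at log2 1.11 (interval 1.04 to 1.19). Its G2/M level was 1.97-fold that in G1, and the step from S to G2/M was small and downward, at log2 -0.14 (interval -0.19 to -0.08). Stag2, on the X chromosome, stood at 109 and 109.8 CPM in G1, 179 and 179.6 in S, then 183 and 185 in G2/M. Its S and G2/M libraries differed by less than the counting error, with an interval of -0.01 to 0.09, and both were well above G1, by 1.64-fold in S. Among fragments per exon base, Stag2 made up 69.2% of the sum of Stag1 and Stag2 in G1, 63.0% in S, then 65.8% in G2/M. The ratio of Stag2 to Stag1 was 2.25 in G1, 1.71 in S, then 1.92 in G2/M, and from G1 to S it was 1.32-fold lower, with an interval of 1.24 to 1.41.

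**Figure D2:**
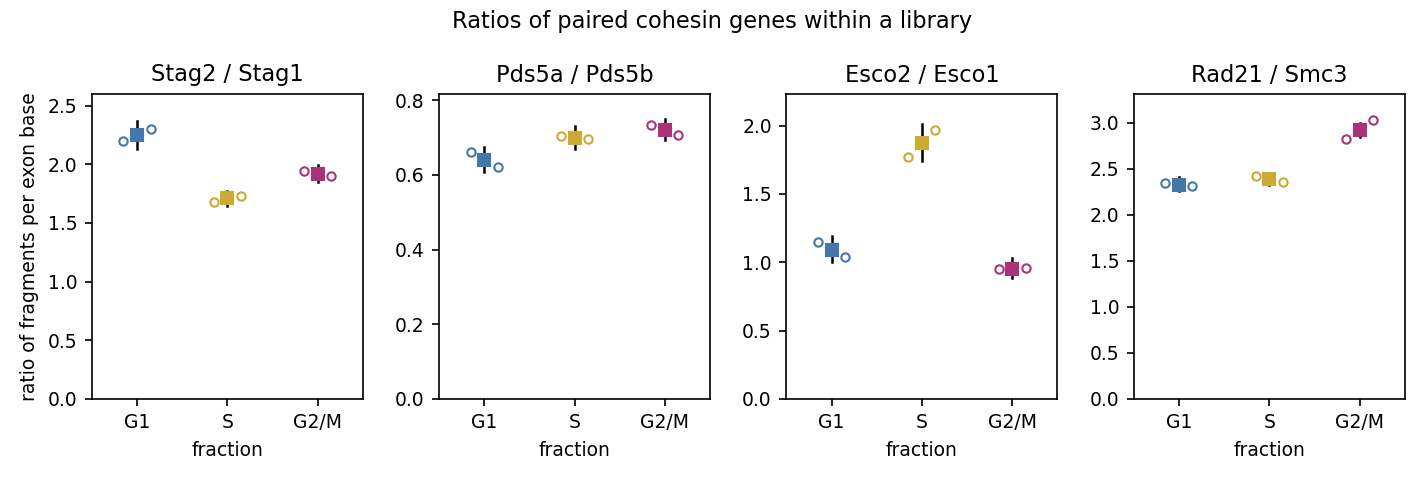
Ratios of fragments per exon base for Stag2 over Stag1, Pds5a over Pds5b, Esco2 over Esco1 and Rad21 over Smc3 in G1, S and G2/M. Squares are the summed libraries with 95% counting intervals and open circles the 2 columns; Esco2 over Esco1 is 1.87 in S against 1.09 in G1, and Rad21 over Smc3 is 2.92 in G2/M against 2.33 in G1.

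The loader gene Nipbl had the same order of phases as Stag1, with a larger step between S and G2/M. It stood at 91.5 and 89.9 CPM in G1, 180.0 and 184 in S, then 136 and 136 in G2/M. S was highest, 2.01-fold above G1 at log2 1.01 (interval 0.94 to 1.07), and G2/M was 1.34-fold below S. Nipbl lies on chromosome 15 from 8291225 to 8444463 of GRCm38 (ENSMUSG00000022141). Its partner in the loader, Mau2, named for its role after its values were seen, had 23.0 CPM in G1, 23.2 in S, then 36.9 in G2/M. The ratio of Nipbl to Mau2 per exon base was 2.41 in G1, 4.80 in S, then 2.26 in G2/M, which is 2.00-fold higher in S than in G1 with an interval of 1.79 to 2.23.

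Pds5a and Pds5b, whose proteins bind RAD21 and serve both release and protection of the ring, were highest in G2/M. Pds5a stood at 104 and 101 CPM in G1, 123 and 123 in S, then 165 and 164 in G2/M. Pds5b stood at 79.9 and 83.0 CPM in G1, 88.5 and 89.8 in S, then 115 and 118 in G2/M. For both genes the larger step was that from S to G2/M, with log2 ratios of 0.42 for Pds5a and 0.38 for Pds5b, against 0.26 and 0.13 from G1 to S. Their ratio per exon base was 0.640 in G1, 0.699 in S, then 0.720 in G2/M, and taken as Pds5b over Pds5a it was 0.889 times as high in G2/M as in G1 (interval 0.833 to 0.949). The exon bases of Pds5a, 19335 in all, include those of every annotated isoform. Wapl, the release factor, stood at 185 CPM in G1, 258 in S, then 231 in G2/M, while Cdca5, which encodes its antagonist sororin, stood at 53.7, 38.2 and 48.6 CPM in the same order. Both were named for their roles after their values were seen. In S the ratio of Wapl to Cdca5 was 1.96-fold that in G1, with an interval of 1.81 to 2.12.

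RefSeq windows (GRCm38.p6) of 250 bases before an annotated start were matched for 5 of the 10 genes, Smc1a, Smc3, Stag1, Pds5a and Pds5b. The E2F word TTTNNCGC, where N is any base, was found on either strand in 2 of the 5 windows and in 4.28% of all 32851 windows. The CHR word TTTGAA, an element of genes expressed late in the cycle, was in 1 of 5 and in 16.0% of all, and the CCAAT word in 3 of 5 and in 33.8% of all. The GC box GGGCGG was in all 5 windows and in 32.7% of all. These windows hold 56.8% to 80.4% G and C against a median of 52.4%, and the part of base composition in these shares was not tested. The 3 windows with an E2F or CHR word are shown because they include the gene of widest range and the PDS5 pair. Each is written 5′ to 3′ on the strand of its gene, with E2F, CHR and CCAAT words on either strand in capitals; none of these capitals overlap. The Stag1 window is chr9:100643198-100643447 (plus strand). That of Pds5a is chr5:65698237-65698486 (minus strand), and that of Pds5b chr5:150673577-150673826 (plus strand). All 3 have a start inside the span of the gene as the deposited table gives it. The Stag1 window lies wholly within that span, and those of Pds5a and Pds5b lie partly within it. The capitals of Stag1 and Pds5b fall inside the span, and those of Pds5a before it.
Stag1: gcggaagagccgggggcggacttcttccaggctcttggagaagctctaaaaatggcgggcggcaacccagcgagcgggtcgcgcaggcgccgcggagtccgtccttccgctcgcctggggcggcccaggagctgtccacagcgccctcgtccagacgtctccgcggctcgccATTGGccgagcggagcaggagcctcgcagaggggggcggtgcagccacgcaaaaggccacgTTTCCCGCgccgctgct
Pds5a: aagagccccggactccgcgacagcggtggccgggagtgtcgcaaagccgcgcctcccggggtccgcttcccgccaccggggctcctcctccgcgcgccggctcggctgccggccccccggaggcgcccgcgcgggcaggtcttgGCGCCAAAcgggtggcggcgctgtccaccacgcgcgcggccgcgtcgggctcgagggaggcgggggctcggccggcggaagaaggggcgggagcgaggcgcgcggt
Pds5b: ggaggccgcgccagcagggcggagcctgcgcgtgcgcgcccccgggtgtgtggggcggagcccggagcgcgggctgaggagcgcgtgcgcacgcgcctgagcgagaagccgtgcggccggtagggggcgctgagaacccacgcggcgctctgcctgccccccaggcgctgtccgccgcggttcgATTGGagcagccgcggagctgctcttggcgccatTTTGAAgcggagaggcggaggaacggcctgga
In Stag1 the capitals are a CCAAT word on the other strand and then an E2F word. Those of Pds5a are an E2F word on the other strand, and those of Pds5b a CCAAT word on the other strand and then the CHR word. A word in a window is a description of its letters and does not show that a factor binds there.

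The acetyltransferase genes behaved unlike each other. Esco2, whose enzyme acts at forks, stood at 32.7 and 32.8 CPM in G1, 56.8 and 59.0 in S, then 34.6 and 33.2 in G2/M. S alone was high, 1.77-fold above G1 with an interval of 1.64 to 1.91 and 1.71-fold above G2/M. G1 and G2/M differed by less than the counting error, at log2 0.05 (interval -0.07 to 0.17). Esco2 lies on chromosome 14 from 65819038 to 65833994 of GRCm38 (ENSMUSG00000022034). Esco1, whose enzyme acts on chromatin outside replication as well, stood at 32.4 and 36.0 CPM in G1, 36.5 and 34.1 in S, then 41.7 and 39.6 in G2/M. Its G1 and S columns overlapped, at log2 0.05 (interval -0.07 to 0.17), and leaving out G1 replicate 1 gave -0.02. Fragments of Esco2 per exon base were 1.09 times those of Esco1 in G1, 1.87 times in S, then 0.952 times in G2/M. The S ratio was 1.71-fold the G1 ratio, with an interval of 1.53 to 1.91. Genes at the level of this pair spread widely between these libraries: of 2587 genes with a mean of 20 to 50 CPM, 42.5% showed a 1.5-fold or wider gap from G1 to S, and 37.1% from S to G2/M.

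**Figure D3:**
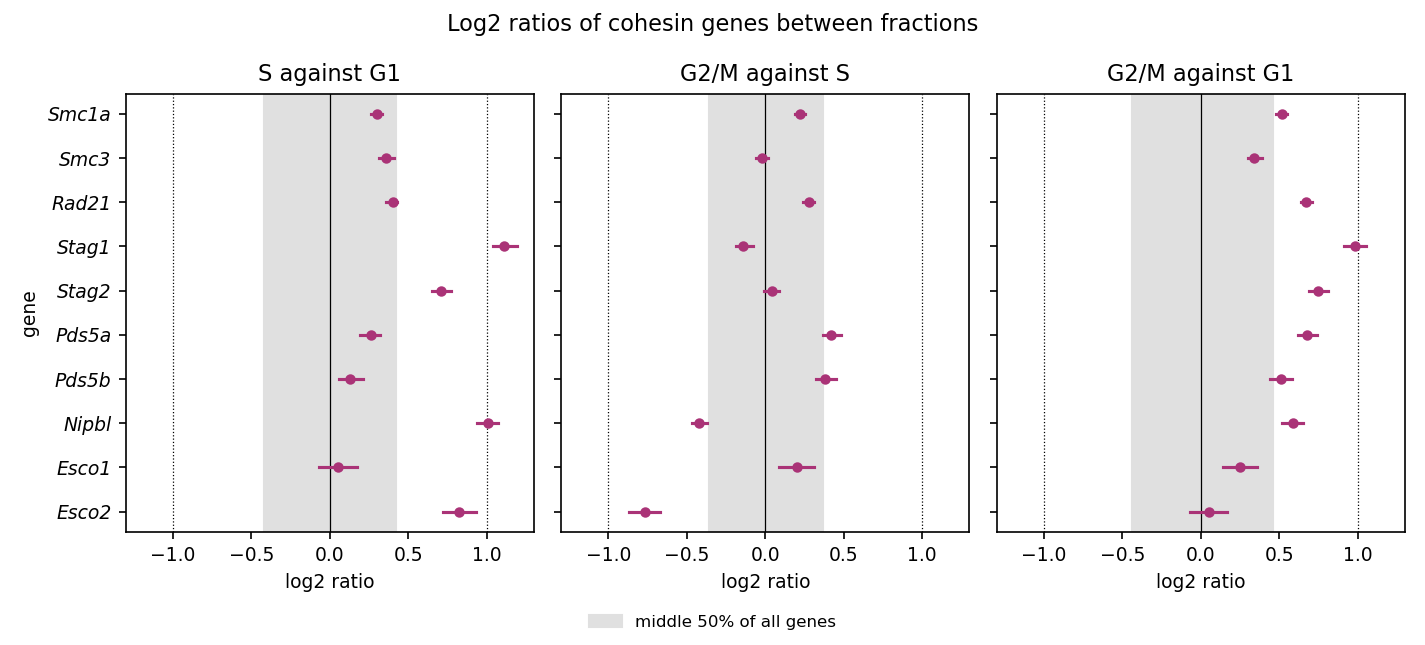
Log2 ratios (x axis) of the 10 cohesin genes (y axis) for S against G1, G2/M against S and G2/M against G1, with 95% counting intervals as bars. Grey marks the middle 50% of all genes with at least 10 CPM in 1 of the 2 libraries, and dotted lines mark 2-fold; every point of S against G1 and of G2/M against G1 lies right of 0.

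Counted over the list, all 10 genes were higher in S than in G1, where 49.6% of 8773 genes with at least 10 CPM were. The interval lay above 0 for 9 of them, Esco1 being the exception. A small gap was enough for that, as for Pds5b at log2 0.13 (interval 0.06 to 0.21). How many of all genes had such an interval was not counted. Stag1 and Nipbl reached 2-fold, 2 of 10 against 8.63% of all genes, and 4 of 10 reached 1.5-fold against 18.5%. None was 2-fold lower, against 8.59%, or 1.5-fold lower, against 18.3%. Nipbl lies at the limit and did not reach it without S replicate 2, at a log2 ratio of 0.99, which leaves a count of 1. Relative to the median of genes of like exon length or genomic span, neither Stag1 nor Nipbl reached 2-fold, and the count was 0. The median log2 ratio of the 10 genes was 0.38, beside -0.01 for all genes. Between G2/M and G1 all 10 were again higher, against 49.8% of 8850 genes. None reached 2-fold, where 10.03% of all genes did, and 5 of 10 reached 1.5-fold against 20.2%. None was 2-fold lower, against 9.81%, or 1.5-fold lower, against 19.6%. Stag1, at a log2 ratio of 0.98, passed 2-fold without G1 replicate 1, at 1.01, and by library size alone, also at 1.01. The median was 0.55, beside 0.00 for all genes. These comparisons share the G1 library, and the log2 ratio of G2/M against G1 is the sum of the other two, so they are not separate pieces of evidence.

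Between G2/M and S the genes divided. Of the 10, 6 were higher in G2/M and 4 lower, against 50.5% of 8752 genes higher, and the median was 0.12 beside 0.01 for all genes. The share of all genes with an interval clear of 0 was not counted here either. Among the 10, intervals lay above 0 for 5 genes (Smc1a, Rad21, Pds5a, Pds5b and Esco1) and below 0 for 3 (Stag1, Nipbl and Esco2). None reached 2-fold in either direction, where 7.12% of all genes were higher and 6.60% lower. Esco2 alone reached 1.5-fold, on the lower side, where 15.4% of all genes did, and none reached it on the higher side, where 16.1% did. Among the 4239 genes averaging 50 CPM or more, 8 of which are cohesin genes, 2-fold shares were smaller. They were 3.54% higher and 2.01% lower for S against G1, 0.849% and 1.49% for G2/M against S, and 3.87% and 2.57% for G2/M against G1.

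Among the 4239 genes averaging 50 CPM or more, exon length moved with the ratio between S and G1, and 5 of the 10 genes lie in the longest of 4 classes of equal size. The median log2 ratio of S against G1 was -0.20 for genes of up to 2958 exon bases and 0.25 for genes of 7131 or more. Stag1, Stag2, Pds5a, Pds5b and Nipbl belong to that longest class, in which 70.8% of genes were higher in S. Relative to the median of its own class, Stag1 had a log2 ratio of 0.86 and Nipbl 0.75, whereas Pds5a stood at 0.01 and Pds5b at -0.12. Esco2, of 4010 exon bases, had 0.88, and Rad21, of 3604, had 0.45. Esco1 and Esco2 average less than 50 CPM, so each was set against the class of its exon length without being among the genes of that class. For G2/M against G1 all 10 genes lay above the median of their class, from 0.11 for Esco2 to 0.82 for Stag1. The part of length in these differences was not tested.

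**Figure D4:**
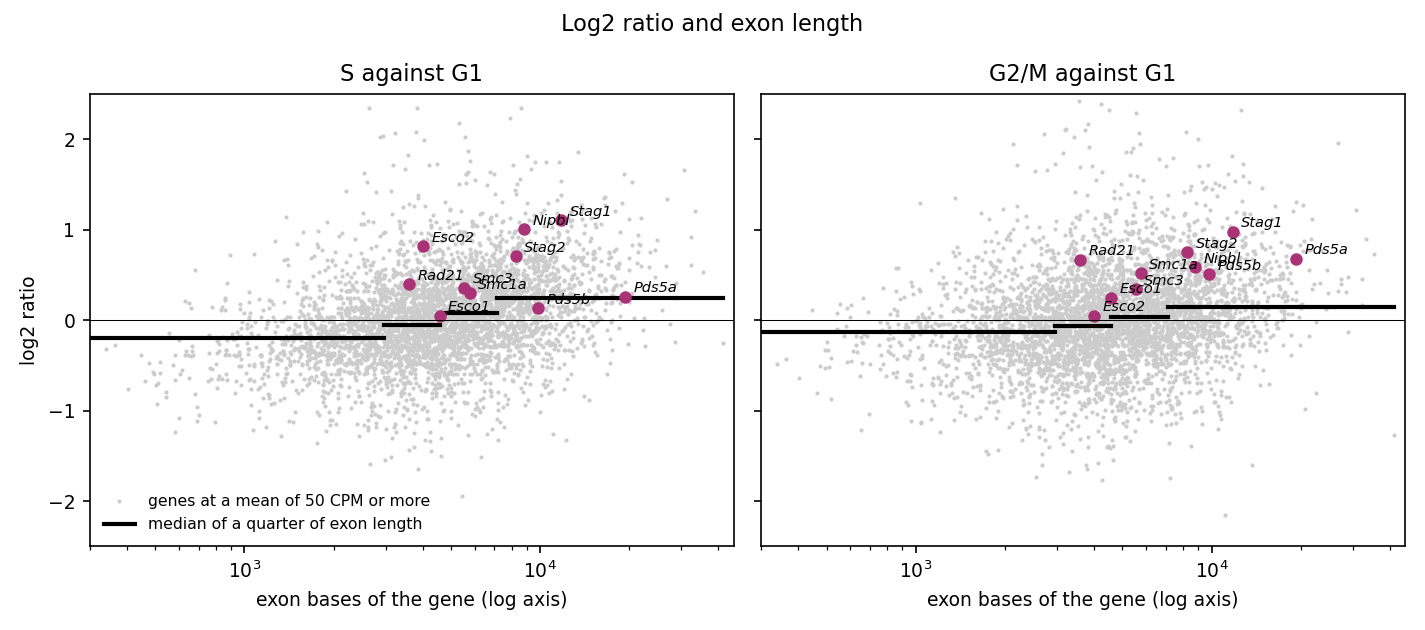
Log2 ratio against exon bases (log axis) for genes averaging 50 CPM or more (grey), with the median of each of 4 classes of exon length (black lines) and the 10 cohesin genes (purple). The class medians of S against G1 go from -0.20 to 0.25, and Stag1, Nipbl and Esco2 lie farthest above theirs. Esco1 and Esco2 average less than 50 CPM and are not among the grey genes. The axis is limited to log2 ratios within 2.5.

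Levels per exon base were set on the TPM scale, in which counts are divided by exon bases and scaled to a common total, and which is used here only within a library. In all 3 libraries the order began with Rad21, Smc1a, Smc3, Stag2 and Nipbl, at 226, 152, 97.0, 35.7 and 27.8 TPM in G1. Below them the order differed. In G1 Pds5b at 22.3, Esco2 at 22.0 and Esco1 at 20.2 TPM were neighbours whose intervals overlapped, and Pds5a came last at 14.3 TPM. Esco2 was sixth in S, at 44.5 TPM, and last in G2/M, at 26.9 TPM, where its interval overlapped that of Pds5a. The meiotic subunits were not part of this pool: Rec8, Stag3 and Rad21l had 0 fragments in every library, and Smc1b had 1, in G1. A count of 0 has an exact Poisson upper bound (95%, two-sided) of 0.115 CPM in G1, 0.103 in S, then 0.102 in G2/M, and the floor of 3 counts used for ratios is 0.0936, 0.0837 and 0.0827 CPM.

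Other genes that work with cohesin, called partner genes here, covered a wider range as a set than the 10 genes. For S against G1 their log2 ratios ran from -1.33 to 2.99, beside 0.05 to 1.11. Not every role was wide: the loader gene Mau2 reached log2 0.68 at most, for G2/M against G1. Of 21 partner genes 20 had fragments and 19 reached 10 CPM. Between S and G1, 5 were at least 2-fold higher and 1 lower, against 8.63% and 8.59% of all genes, and between G2/M and G1 6 were higher and 2 lower, against 10.03% and 9.81%. All 4 protection genes at that level (Sgo1, Sgo2a, Haspin and Bub1) and both genes of removal in prophase (Plk1 and Aurkb) were higher in S and in G2/M than in G1, as were 49.6% and 49.8% of all genes. Sgo1, the shugoshin that shields centromeric cohesin, stood at 14.0 CPM in G1, 59.0 in S, then 91.1 in G2/M. Of the cleavage genes, Espl1, which encodes separase, stood at 29.3, 82.2 and 101 CPM, and Pttg1, which encodes its inhibitor securin and was named after its values were seen, was lowest in S, at 58.9, 45.1 and 82.8 CPM. Haspin, the histone H3 kinase of centromeres, had 4.68, 37.1 and 26.2 CPM, and Aurkb, a kinase that drives cohesin off chromosome arms, 19.4, 79.4 and 64.5 CPM. Plk1, which phosphorylates STAG proteins for that removal, had its larger step from S to G2/M, at 62.0, 96.7 and 205 CPM.

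Genes of fork factors, which aid cohesion during replication, stood the other way between S and G1. All 7 (Chtf18, Chtf8, Dscc1, Wdhd1, Timeless, Tipin and Ddx11) were lower in S, from log2 -0.11 for Ddx11 to -1.33 for Wdhd1, where 49.6% of all genes were higher in S. Dscc1, a subunit of the clamp loader that promotes cohesion, stood at 43.4 CPM in G1, 26.7 in S, then 9.48 in G2/M, the S level being 1.63-fold and the G2/M level 4.58-fold below G1. Wdhd1, which links helicase and polymerase at forks and was chosen after its values were seen, stood at 167, 66.6 and 65.1 CPM. Esco2, at 57.9 CPM in S against 32.7 CPM in G1, lay on the opposite side from all 7. Ctcf, the factor at which loop-forming cohesin stops, was also chosen after its values were seen, and stood at 87.0, 121 and 159.7 CPM. Hdac8, the SMC3 deacetylase, stayed under 10 CPM, with 30 fragments in G1, 338 in S, then 26 in G2/M.

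**Figure D5:**
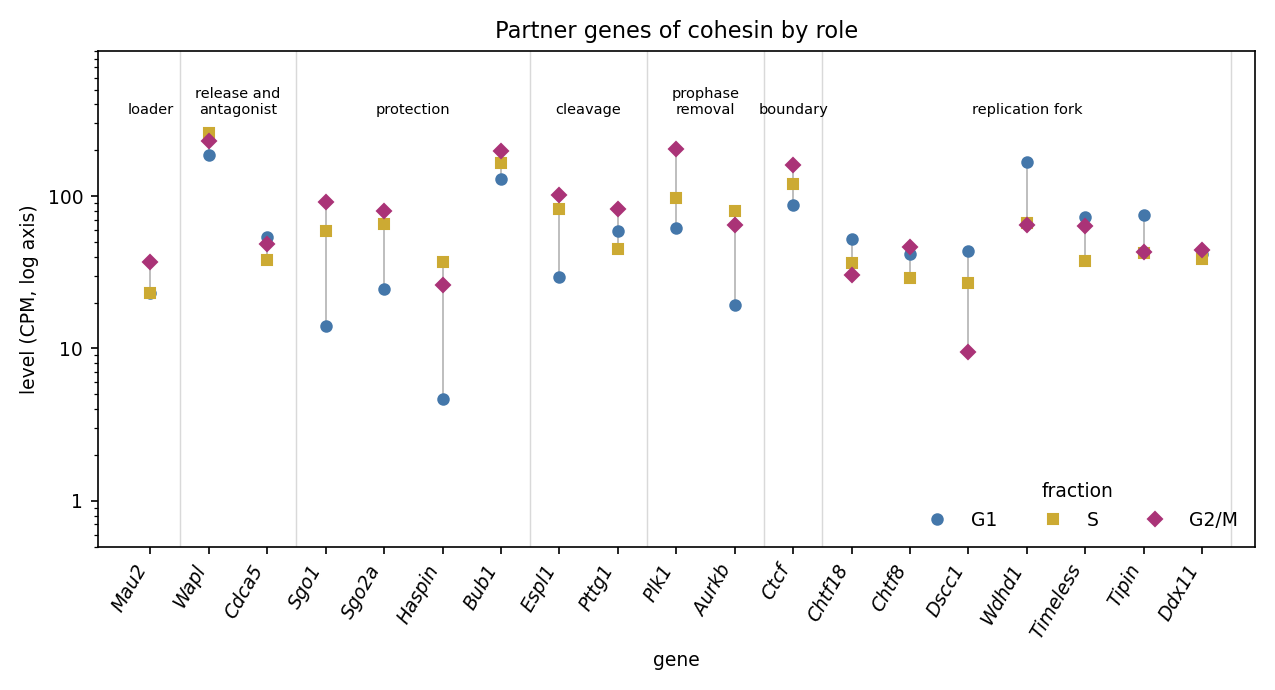
Levels in CPM (log axis) of the 19 partner genes that reached 10 CPM, grouped by role, in G1 (circles), S (squares) and G2/M (diamonds). Sgo1, Espl1 and Haspin lie lowest in G1 by a wide margin, and Dscc1 and Wdhd1 lie highest there.

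Other SMC complexes gave a measure of comparison. The 8 condensin genes, whose complexes compact mitotic chromosomes, had median log2 ratios of 0.85 for S against G1 and 1.00 for G2/M against G1, beside 0.38 and 0.55 for the cohesin genes. Within condensin, for G2/M against G1 4 of 8 genes were 2-fold higher or more, against 10.03% of all genes. The 8 log2 ratios were spread, from 1.39 for Smc4 (789 against 302 CPM) to -0.62 for Ncapd3 (25.8 against 39.7 CPM). Ncaph2 and Ncapg2 lay between, at 0.23 and 0.21. The 6 SMC5/6 genes had medians of -0.22 and 0.04 in the same comparisons. With 1 library per phase none of these differences between complexes has a test.

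By distance between centred log2 levels over the 3 libraries, the genes most like Stag1 among 4232 averaging 50 CPM or more were Ash1l, Ascc3, Vgll3, Utrn and Dock1. Their distances were 0.0154 to 0.0400 on the log2 scale, as in Utrn at 137 CPM in G1, 301 in S, then 264 in G2/M. Their exon lengths were 3322 to 14838 bases, beside 11781 for Stag1. The mean centred log2 profile of the 10 genes was -0.35 in G1, 0.17 in S, then 0.18 in G2/M, and was closest to that of Cebpg, Myo1c, Itga6, Phc3 and Slc39a14. With only 3 libraries, such likeness is a description.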

How the data were processed

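The values are raw counts that the authors deposited. Per the file headers, featureCounts 1.5.0-p3 assigned paired fragments to exons and summed them by gene ID, with Ensembl models of GRCm38. HISAT2 2.1.0 and SAMtools 1.6 are named per the submitters' processing notes, without a role. The command names no option for strand or for multiply mapping reads. Of the 10 genes, Stag2 and Pds5a overlap exons of opposite-strand gene models, by 0.338% and up to 1.32% of their exon bases, and those models had 0 fragments. The 24 ChIP-seq samples were not analysed here. Symbols were matched for 45143 of 46078 genes (98.0%).

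The 6 columns held 16109055 to 18103769 fragments, and the 2 columns of a phase were summed, giving libraries of 32395232 (G1), 35822319 (S) and 35907974 fragments (G2/M). Counts were scaled by TMM in edgeR 4.0.16 (R 4.3.3) over 12971 genes with at least 10 fragments in 1 library, with factors of 0.990, 1.00 and 1.01. Ratios carry exact 95% binomial intervals, levels exact Poisson intervals and ratios of ratios conditional exact intervals (SciPy 1.17.1). Counts under 3 were set to 3. The labels name no molecular identifiers, and intervals and floors cover counting error alone. The chi-square and interval steps were tested on simulated data. Genes named are all 10 members, the 6 partner genes with the widest ratios, meiotic subunits, the 5 likest genes, condensin genes and markers. Also named are partner genes counted by role, Hdac8 as a partner gene under 10 CPM, and others stated to be named after their values were seen. The members and lists were chosen with earlier results of these data known. Alternatives were other scalings, each column left out, other thresholds and centring by exon length.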

Additional observations from a re-analysis of the deposited data

How the results depend on the processing

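Scaling by DESeq2 size factors (DESeq2 1.42.0), by factors from all genes with a fragment, or by library size moved no log2 ratio of the 10 genes by more than 0.03, and leaving out a column moved none by more than 0.09. The only signs that changed under these settings were those of Smc3 for G2/M against S (main -0.02, up to 0.01) and Esco1 for S against G1 (main 0.05, down to -0.02), both within counting error. By library size alone, 1 gene was at least 2-fold higher in G2/M than in G1, against 0. With 1 column left out, that count ran from 0 to 1, the count higher in S than in G1 from 1 to 2, and the count of partner genes lower in S than in G1 from 1 to 2. At 1.5-fold, 4 cohesin genes were higher in S than in G1, 5 higher in G2/M than in G1, and for G2/M against S 1 was lower. Of the partner genes 6 were higher and 4 lower for S against G1 (18.5% and 18.3% of all genes), 9 higher and 4 lower for G2/M against G1 (20.2% and 19.6%), and 6 higher and 1 lower for G2/M against S (16.1% and 15.4%). At a mean of at least 50 CPM, for G2/M against S 0 partner genes were 2-fold lower, and for G2/M against G1 1 was; fewer genes enter under that minimum. Centred on 4 classes of exon length, 0 cohesin genes were 2-fold higher in S than in G1 and 2 partner genes were 2-fold lower. The median for G2/M against G1 was then 0.46. Signs changed for Pds5b in S against G1, from 0.13 to -0.12, and for Smc3 in G2/M against S, from -0.02 to 0.02. Centring on 4 classes of genomic span, an alternative chosen after seeing the data, gave 0 such cohesin genes. Its medians were 0.29 for S against G1 and 0.44 for G2/M against G1. For S against G1 it changed the signs of Pds5b, to -0.10, and of Esco1, from 0.05 to -0.04. Smc3 for G2/M against S went to 0.00. No paired analysis was possible because the 2 columns of each phase were summed to 1 library and no result comes from a test between phases. Each cohesin gene had at least 1049 fragments in each library, which sets the counting intervals; spread between replicate libraries could not be measured.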
